A study of Homo sapiens with 9 samples.

Results

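The 8 genes described here are 7 secreted chemokines, CXCL1, CXCL2, CXCL3, CXCL5, CXCL8, CCL2 and CCL20, and ACKR3, an atypical chemokine receptor that takes up chemokines and clears them. They were picked by gene name from the 58735 genes of the deposited count table. Each of the 8 names matched a protein-coding gene, and all 8 were among the 16874 genes with enough counts to test. They were measured by bulk RNA sequencing in U87, a human glioblastoma cell line, in 3 groups of 3 libraries. The C269S cells stably expressed the R132H mutant of isocitrate dehydrogenase 1 with the further cysteine-to-serine change C269S. The IDH1mt cells stably expressed the R132H mutant without that change, and the PCDH cells carried the vector that gives the group its name. No group carried an introduced IDH1 without R132H, and all 3 groups kept the IDH1 gene of the line. The study set out to ask how autopalmitoylation of the mutant enzyme bears on gene expression. The sources used here do not say whether a group was a clone or a pool of cells, or whether its 3 libraries came from separate cultures. The p-values therefore reflect variation among libraries that could be technical only.

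Chemokines are small secreted proteins that direct the migration of cells bearing the matching receptor. CXCL1, CXCL2, CXCL3, CXCL5 and CXCL8 attract neutrophils through CXCR2, CCL2 attracts monocytes through CCR2, and CCL20 attracts lymphocytes and dendritic cells through CCR6. Their genes are classic targets of NF-kB, and glioblastoma cells are known to secrete CXCL8 and CCL2. ACKR3 binds CXCL12 and CXCL11, recruits arrestins in place of G proteins, and lowers the amount of free ligand.

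The genes of CXCL1, CXCL2, CXCL3, CXCL5 and CXCL8 lie together on chromosome 4, in the order CXCL8, CXCL1, CXCL5, CXCL3 and CXCL2, with the near end of CXCL2 356.5 kb from the start of CXCL8. CXCL8 and CXCL1 are on the plus strand, and the other three are on the minus strand. RefSeq promoters (GRCh38.p14) were found for 6 of the 8 members, namely these 5 and CCL20. The 110 bases just before the start site are printed for the 5 clustered genes because the longest run of letters common to all 5 windows lies there. The capitals mark that run, GGAATTTCC, or GGGAATTTCC where a further G precedes it, letters known to be bound by NF-kB. RefSeq start sites can differ from the gene ends of the count table. The lines run 5′ to 3′ on the strand of the gene, which is at chr4:73869283-73869392 (plus) for CXCL1, chr4:74099196-74099305 (minus) for CXCL2, chr4:74038690-74038799 (minus) for CXCL3, chr4:73998678-73998787 (minus) for CXCL5 and chr4:73740459-73740568 (plus) for CXCL8.
CXCL1: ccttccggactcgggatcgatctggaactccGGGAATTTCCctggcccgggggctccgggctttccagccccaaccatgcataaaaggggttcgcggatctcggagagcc
CXCL2: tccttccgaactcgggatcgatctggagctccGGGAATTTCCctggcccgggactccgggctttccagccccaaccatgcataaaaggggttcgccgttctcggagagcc
CXCL3: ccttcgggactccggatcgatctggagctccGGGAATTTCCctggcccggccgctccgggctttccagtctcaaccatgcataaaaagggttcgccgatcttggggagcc
CXCL5: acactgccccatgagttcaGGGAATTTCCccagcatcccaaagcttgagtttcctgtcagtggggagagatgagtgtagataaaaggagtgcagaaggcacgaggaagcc
CXCL8: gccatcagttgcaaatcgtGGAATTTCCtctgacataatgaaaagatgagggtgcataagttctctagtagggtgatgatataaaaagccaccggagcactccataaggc

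The longer form, GGGAATTTCC, was searched on both strands of the 250 bases before the start. It began 79 bases before the start in CXCL1 and in CXCL3, 78 bases before it in CXCL2 and 91 bases before it in CXCL5. Over all 35116 promoters of the table it occurred in 50, which is 0.142%. The shorter GGAATTTCC, which every longer match contains, was found in 0.413% of all promoters and in 5 of the 6 member promoters, CXCL8 being the fifth, with its match starting 91 bases before the start. The AP-1 letters TGACTCA were found in 4.2% of all promoters and, among the members, in CXCL8 alone, 137 bases before the start and so outside the printed stretch. The hypoxia response letters ACGTG stood in none of the 6 windows (18.5% of all promoters), and TATAAA stood in those of CXCL8 and CCL20 (10.7% of all). The run was found in the 5 printed promoters, so its presence in them is fixed by that choice, and the matches describe the letters and not where a factor was bound. CXCL1, CXCL2 and CXCL3, whose promoter windows align at 81.4% to 86.4% identity, carry the same letters at nearly the same place, and their messages are described separately below because they moved in different directions.

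Library totals ran from 19108925 to 24803711 counts, so a gene with 0 counts in a library has an upper limit of 3 counts, or 0.121 to 0.157 CPM (counts scaled to the library total). Such limits cover counting error only. Levels are given below as TMM-scaled CPM, and levels of different genes are mostly compared as FPKM, which divides by the deposited gene length. For CXCL3 and CCL2 that length is the whole span of the gene. Shares of summed counts and sums of CPM over several genes are not corrected for length. IDH1, whose message carries the introduced enzyme, stood at 739 ± 30.3 CPM in C269S cells, 677 ± 16.5 CPM in IDH1mt cells and 111 ± 7.97 CPM in PCDH cells (SD, n = 3 each). Among the glial markers GFAP was low, at 3.11 to 4.01 CPM in the group means, AQP4 was at 0 in all 9 libraries, and SOX2 had at most 3 counts in a library. Group means of SLC1A2, S100B and ALDH1L1 were at most 1.09 CPM. Other glial markers were detected, with SLC1A3 at 42.7 to 44.4 CPM and OLIG2 at 7.07 to 9.39 CPM in the group means. The mesenchymal markers VIM, CD44 and FN1 were abundant. Of 8 myeloid and lymphoid markers, TYROBP and CD3E were at 0 in every library and PTPRC had at most 7 counts. PCDH replicate 3 stood furthest from the others of its group, and calls that depend on 1 library are named beside the genes.

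By FPKM the 7 ligands spanned a wide range. CXCL8 was among the most abundant messages of the cells, ranking between 9 and 12 of all genes in every library, at 2372 ± 171 FPKM in C269S cells, 2645 ± 124 FPKM in IDH1mt cells and 1915 ± 207 FPKM in PCDH cells (SD, n = 3 each). CXCL2 followed at 336, 310 and 362 FPKM in C269S, IDH1mt and PCDH cells, and CXCL5 at 118, 114 and 122 FPKM in the same order of groups. CXCL1 and CXCL3 came next, and their order by FPKM differed between groups. That order depends on the deposited lengths, 1296 bases for CXCL1 and 2219 bases for CXCL3, the latter being the whole span of the gene. Their longest protein-coding transcripts have 1097 bases (CXCL1) and 1075 bases (CXCL3). In CPM, CXCL3 stood above CXCL1 in every group, at 136 against 109 CPM in PCDH cells. CXCL1 averaged 66.7 FPKM and CXCL3 averaged 71.8 FPKM in C269S cells, against 45.4 and 83.8 FPKM in IDH1mt cells and 83.5 and 60.8 FPKM in PCDH cells. The FPKM ranges of CXCL1 and CXCL3 did not overlap within any of the 3 groups. CCL2 averaged 22.3, 15.4 and 18.7 FPKM and CCL20 averaged 12.8, 17.8 and 7.78 FPKM in C269S, IDH1mt and PCDH cells. In IDH1mt cells the ranges of CCL2 and CCL20 nearly met, with 14.5 to 16.6 FPKM for CCL2 and 16.6 to 18.4 FPKM for CCL20. Their order also depends on the deposited lengths, 1986 bases for CCL2, its whole span, and 1594 bases for CCL20, less than its span. ACKR3 was the lowest of the 8, at 1.35, 2.20 and 0.592 FPKM in C269S, IDH1mt and PCDH cells. The summed FPKM of the 7 ligands was 2999 ± 190.4 in C269S cells, 3232 ± 121 in IDH1mt cells and 2570 ± 222 in PCDH cells, and CXCL8 supplied 79.0%, 81.8% and 74.4% of it.

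**Figure D1:**
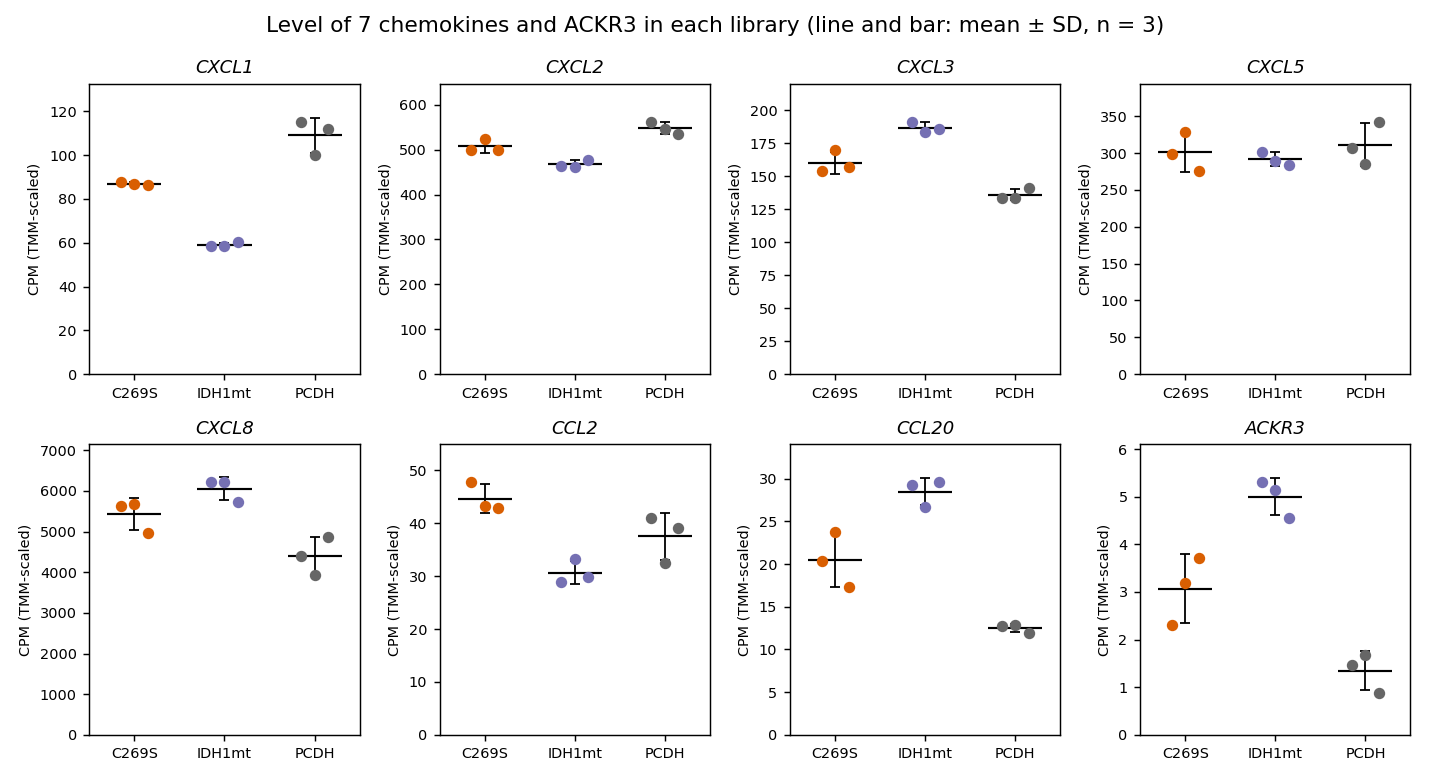
The plot shows the level of each member as TMM-scaled CPM (vertical axes, linear, from 0) in C269S, IDH1mt and PCDH libraries, with points for libraries and a line and bar for the mean ± SD (n = 3). ACKR3 and CCL20 sat highest in IDH1mt libraries and lowest in PCDH libraries without overlap, CXCL1 had the opposite order, and the CXCL5 groups overlapped.

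In IDH1mt cells against PCDH cells, the R132H mutant is set against the vector. Without a group that carried an introduced IDH1 lacking R132H, the mutation and the higher IDH1 message cannot be told apart here. CXCL3, CXCL8, CCL20 and ACKR3 rose, and CXCL1, CXCL2 and CCL2 fell. ACKR3 was 3.70-fold higher, CCL20 2.27-fold higher and CXCL1 1.85-fold lower, while CXCL3 and CXCL8 were each higher by 1.37-fold or 1.38-fold. Thus 7 of 8 members passed the edgeR quasi-likelihood test at an adjusted p under 0.05, where 14.1% of all genes tested did. The 4 that rose stand against 7.18% of all genes called higher, and the 3 that fell against 6.9% called lower. In 6 of the 8 the libraries of the groups did not overlap, as in 29.2% of all genes tested. The median log2 fold change of the 8 was 0.18, against -0.01 over all genes tested. Since the genes were chosen with earlier results of these data known, these counts describe the members and do not test them as a group. In bulk RNA, fewer cells of a type and less RNA per cell cannot be told apart.

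In C269S cells against PCDH cells, the doubly changed enzyme is set against the vector. CXCL3, CXCL8, CCL20 and ACKR3 rose again, CXCL1 fell, and CXCL2, CXCL5 and CCL2 did not pass the test. ACKR3 was 2.27-fold higher, CCL20 1.64-fold higher and CXCL1 1.254-fold lower. With 5 of 8 members called, the share in all genes tested was 1.42%, of which 0.883% were called higher and 0.533% lower. The libraries of the groups did not overlap for 7 of the 8 members, as for 15.2% of all genes tested. The median log2 fold change was 0.24, against -0.01 over all genes. This comparison uses the same 3 PCDH libraries as that of IDH1mt cells, so the pair of results is not independent.

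In C269S cells against IDH1mt cells, whose introduced enzymes differ by the C269S change, CXCL1 and CCL2 were higher and CXCL3 and CCL20 were lower. IDH1 itself was at 718 to 773 CPM in C269S libraries and 660 to 693 CPM in IDH1mt libraries. That difference was not called (log2 fold change 0.13, edgeR adjusted p = 0.23), and its part in the member results was not tested. CXCL1 was 1.47-fold and CCL2 1.45-fold higher, and CCL20 was 1.39-fold lower. CXCL2, CXCL5, CXCL8 and ACKR3 did not pass the test, although ACKR3 was 1.63-fold lower. The 4 calls stand against 4.9% of all genes tested, with 2.29% called higher and 2.61% called lower. In 7 of the 8 the libraries did not overlap, as in 23.6% of all genes, and the median log2 fold change was -0.05, against 0.00044 over all genes. The mean of C269S cells lay between those of IDH1mt and PCDH cells for 7 of 8 members, all but CCL2, and for 47.2% of all genes tested.

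**Figure D2:**
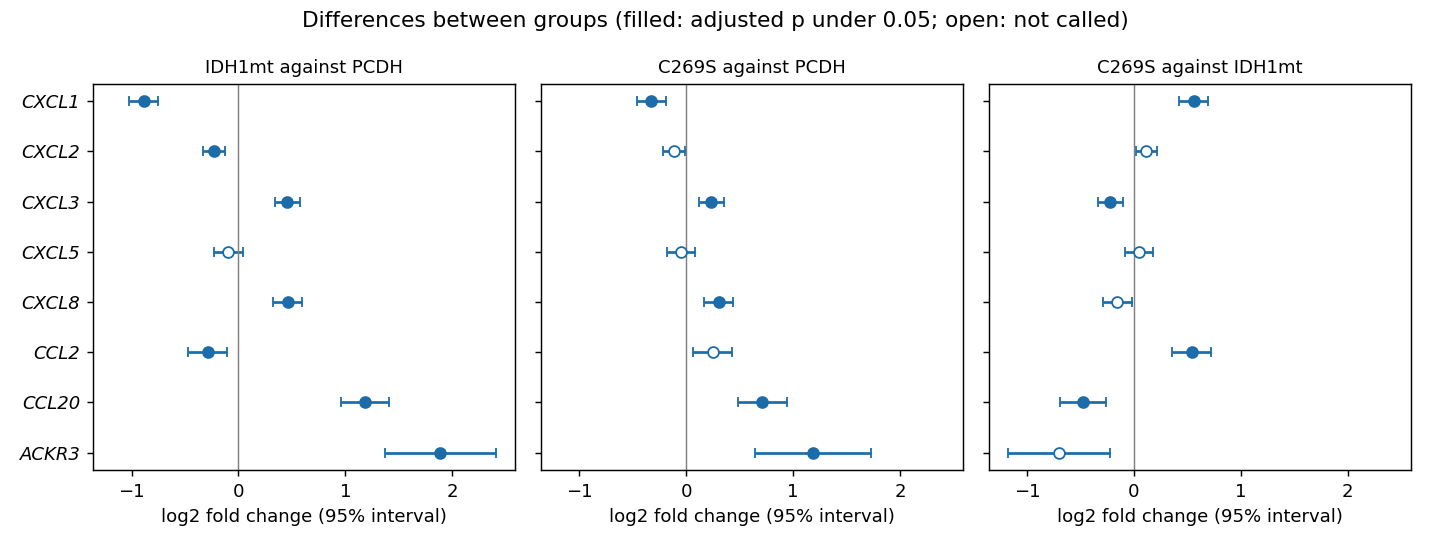
The plot gives the log2 fold change of each member (points, horizontal axis) with its 95% interval (bars) from edgeR for IDH1mt against PCDH, C269S against PCDH and C269S against IDH1mt, filled where the adjusted p was under 0.05. ACKR3 has the widest intervals, from 1.37 to 2.41 for IDH1mt against PCDH, and CXCL5 is open in all 3 panels.

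CXCL1 (ENSG00000163739, chromosome 4, 73869393 to 73871242, plus strand) attracts neutrophils and was first known as a melanoma growth-stimulating factor. It was present at 87.6, 86.97 and 86.5 CPM in C269S libraries, 58.5, 58.7 and 60.2 CPM in IDH1mt libraries and 115, 100.2 and 112 CPM in PCDH libraries. The 3 groups did not overlap, with IDH1mt cells lowest and PCDH cells highest. The log2 fold change was -0.89 in IDH1mt cells against PCDH cells (SE 0.07, adjusted p = 1.8e-11) and -0.33 in C269S cells against PCDH cells (SE 0.07, adjusted p = 0.0052, edgeR). C269S cells exceeded IDH1mt cells by 0.56 (SE 0.07, adjusted p = 7.4e-07, edgeR). The difference of C269S cells from PCDH cells missed the threshold without PCDH replicate 1 (edgeR adjusted p = 0.054).

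CXCL2 (ENSG00000081041, chromosome 4, 74097035 to 74099293, minus strand), a close paralog of CXCL1 that also acts on CXCR2, had a smaller difference of the same direction. Its level was 499.9, 524 and 498 CPM in C269S libraries, 464, 462 and 478 CPM in IDH1mt libraries and 563, 546 and 535 CPM in PCDH libraries. These groups did not overlap either. In IDH1mt cells CXCL2 fell by 0.23 on the log2 scale relative to PCDH cells (SE 0.05, adjusted p = 0.0017, edgeR). The difference was -0.11 in C269S cells against PCDH cells (95% interval -0.21 to -0.01, adjusted p = 0.35) and 0.12 against IDH1mt cells (0.01 to 0.22, adjusted p = 0.22, edgeR), and neither passed after adjustment.

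CXCL3 (ENSG00000163734, chromosome 4, 74036589 to 74038807, minus strand), the third close paralog, went the other way. It had 154, 169.7 and 157 CPM in C269S libraries, 192, 184 and 186 CPM in IDH1mt libraries and 134, 133 and 141 CPM in PCDH libraries. IDH1mt libraries were highest and PCDH libraries lowest, with no overlap. The log2 fold change was 0.46 in IDH1mt cells against PCDH cells (SE 0.06, adjusted p = 8.3e-07, edgeR). In C269S cells it was 0.24 against PCDH cells (SE 0.06, adjusted p = 0.032) and -0.22 against IDH1mt cells (SE 0.06, adjusted p = 0.019, edgeR). The call against PCDH cells was lost without any of C269S replicates 1 and 2, PCDH replicates 1 and 2 and IDH1mt replicates 1 and 3 (edgeR adjusted p = 0.057 to 0.26), with libraries scaled by size alone (0.051) and in the fit of the 6 libraries compared (0.094). It was also lost in limma on log2 FPKM (adjusted p = 0.073 to 0.079). The call against IDH1mt cells was lost without any of C269S replicates 1 and 3 and IDH1mt replicates 1, 2 and 3 (edgeR adjusted p = 0.054 to 0.14).

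CXCL1, CXCL2 and CXCL3 have coding sequences of 324 bases that are 90.7% to 94.4% identical between pairs. Stretches of 50 bases shared exactly make up 0.573% to 0.585% of the transcripts for CXCL1 with CXCL3. For the pairs with CXCL2 they make up 4.62% to 5.73%. The sources used here do not say how reads matching more than 1 of the 3 genes were assigned, so the division of counts between the genes is uncertain. Within the summed counts of the 3 genes, CXCL1 took 11.5% ± 0.352 in C269S cells, 8.28% ± 0.0729 in IDH1mt cells and 13.8% ± 0.790 in PCDH cells (SD, n = 3 each). CXCL3 took 21.2% ± 0.485, 26.2% ± 0.605 and 17.2% ± 0.707 of the sum in C269S, IDH1mt and PCDH cells. The share of each of the 3 genes separated the groups without overlap in all 3 comparisons, with a two-sided exact permutation p of 0.1, the smallest that 3 libraries against 3 allow. Wilson 95% intervals on these shares had half-widths of 0.413 to 0.799 percentage points, which cover counting error only. Counted together, the 3 paralogs stood at 755 ± 22.5 CPM in C269S cells, 714 ± 9.29 CPM in IDH1mt cells and 794 ± 16.5 CPM in PCDH cells. The summed log2 fold change was -0.15 in IDH1mt cells against PCDH cells (SE 0.05, adjusted p = 0.033), -0.07 in C269S cells against PCDH cells (adjusted p = 0.60) and 0.08 in C269S cells against IDH1mt cells (adjusted p = 0.44, edgeR). In IDH1mt cells against PCDH cells the sum differed less than CXCL1 (-0.89) or CXCL3 (0.46) alone. CXCL2, with a log2 fold change of -0.23, took 65.5% of the summed counts in IDH1mt cells and 69.1% in PCDH cells. The sum therefore mostly reflects CXCL2 and does not show how counts were divided between CXCL1 and CXCL3.

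**Figure D3:**
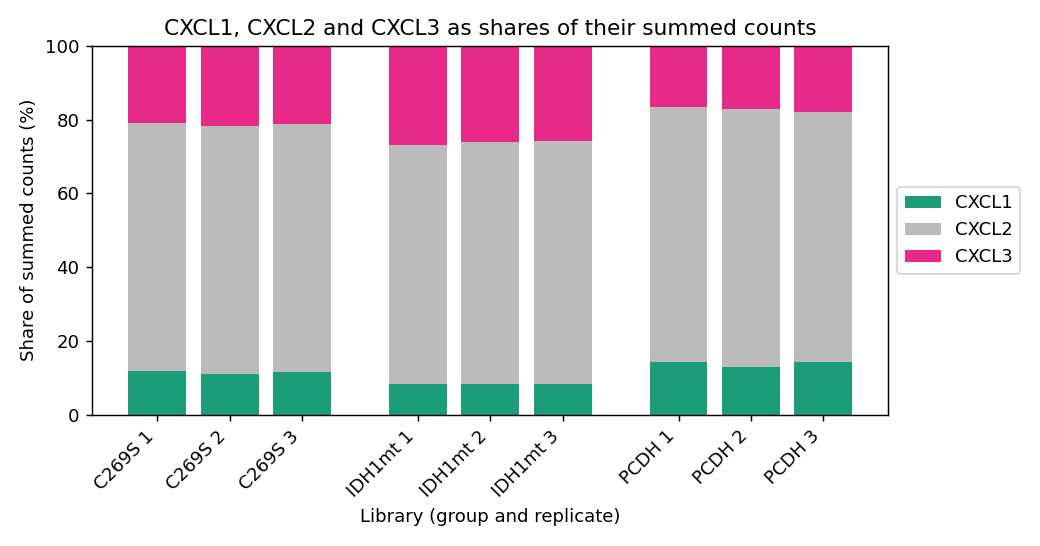
The plot divides the summed counts of CXCL1, CXCL2 and CXCL3 in each library (bars, in percent) for C269S, IDH1mt and PCDH replicates 1 to 3. CXCL3 took 25.7% to 26.8% in IDH1mt libraries, more than in any C269S library (20.8% to 21.7%) or PCDH library (16.5% to 17.9%).

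CXCL5 (ENSG00000163735, chromosome 4, 73995642 to 73998779, minus strand), another neutrophil attractant, was the member with no call. Its level was 299, 329 and 276 CPM in C269S libraries, 302, 289 and 283 CPM in IDH1mt libraries and 307, 285 and 343 CPM in PCDH libraries, and all 3 groups overlapped. The log2 fold change was -0.10 in IDH1mt cells against PCDH cells (95% interval -0.23 to 0.04, adjusted p = 0.38, edgeR). In C269S cells it was -0.05 against PCDH cells (-0.18 to 0.08) and 0.05 against IDH1mt cells (-0.09 to 0.18). A difference within these intervals remains possible.

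CXCL8 (ENSG00000169429, chromosome 4, 73740506 to 73743716, plus strand) is interleukin 8, which attracts neutrophils through CXCR1 and CXCR2 and promotes vessel growth. It had 5631, 5672 and 4975 CPM in C269S libraries, 6210.4, 6211 and 5725 CPM in IDH1mt libraries and 4386, 3928 and 4871 CPM in PCDH libraries. IDH1mt libraries were highest without overlap, and C269S replicate 3 lay just above PCDH replicate 3, the highest of the PCDH libraries. The log2 fold change was 0.46 in IDH1mt cells against PCDH cells (SE 0.06, adjusted p = 2.2e-05) and 0.30 in C269S cells against PCDH cells (SE 0.06, adjusted p = 0.014, edgeR). C269S cells differed from IDH1mt cells by -0.16 (95% interval -0.29 to -0.02, adjusted p = 0.21, edgeR). The call in C269S cells against PCDH cells was lost without C269S replicate 1 or 2 or PCDH replicate 1 or 2 (edgeR adjusted p = 0.063 to 0.10) and in limma on log2 FPKM (0.16). Without PCDH replicate 3, or in a fit of the 6 libraries compared, the CXCL8 difference of C269S cells from IDH1mt cells passed the test (edgeR adjusted p = 0.040 and 0.025). CXCL8 alone took 0.543% ± 0.0420 of all counts in C269S cells, 0.594% ± 0.0303 in IDH1mt cells and 0.445% ± 0.0427 in PCDH cells (SD, n = 3 each).

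CCL2 (ENSG00000108691, chromosome 17, 34255218 to 34257203, plus strand), the main attractant of monocytes, had an order of its own. It stood at 47.7, 43.2 and 42.9 CPM in C269S libraries, 28.95, 33.1 and 29.9 CPM in IDH1mt libraries and 41.0, 32.5 and 39.1 CPM in PCDH libraries. Every C269S library exceeded every library of the other groups, and IDH1mt replicate 2 exceeded PCDH replicate 2. In C269S cells CCL2 was higher than in IDH1mt cells by 0.54 on the log2 scale (SE 0.09, adjusted p = 0.00016, edgeR). Against PCDH cells the log2 difference of C269S cells was 0.25 (95% interval 0.07 to 0.43, adjusted p = 0.19, edgeR). In IDH1mt cells it was -0.29 against PCDH cells (SE 0.09, adjusted p = 0.031, edgeR). Leaving out PCDH replicate 1 or either of IDH1mt replicates 1 and 3 ended that call (edgeR adjusted p = 0.11 to 0.17), as did limma on log2 FPKM (0.082 to 0.084).

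CCL20 (ENSG00000115009, chromosome 2, 227805739 to 227817564, plus strand), the ligand of CCR6, had 20.4, 23.8 and 17.4 CPM in C269S libraries, 29.2, 26.6 and 29.6 CPM in IDH1mt libraries and 12.7, 12.9 and 12.0 CPM in PCDH libraries. No library of a group reached into another group. The log2 fold change was 1.18 in IDH1mt cells (SE 0.11, adjusted p = 1.7e-09) and 0.71 in C269S cells (SE 0.11, adjusted p = 0.00022, edgeR), both against PCDH cells. C269S cells were lower than IDH1mt cells, with a log2 fold change of -0.47 (SE 0.11, adjusted p = 0.0049, edgeR). That last call was lost without C269S replicate 3, the lowest of its group (edgeR adjusted p = 0.057).

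ACKR3 (ENSG00000144476, chromosome 2, 236567787 to 236582358, plus strand), formerly CXCR7, is the receptor of the set and rests on few counts. C269S libraries had 45, 63 and 81 counts, IDH1mt libraries 126, 125 and 85, and PCDH libraries 30, 40 and 20. Scaled, these were 2.30, 3.19 and 3.72 CPM in C269S libraries, 5.30, 5.15 and 4.56 CPM in IDH1mt libraries and 1.47, 1.69 and 0.887 CPM in PCDH libraries. The 3 groups did not overlap. The log2 fold change was 1.89 in IDH1mt cells against PCDH cells (SE 0.25, adjusted p = 2.2e-06) and 1.19 in C269S cells against PCDH cells (SE 0.26, adjusted p = 0.013, edgeR). C269S cells differed from IDH1mt cells by -0.70 (95% interval -1.18 to -0.22, adjusted p = 0.087, edgeR). The call in C269S cells against PCDH cells was lost without C269S replicate 2 or 3 (edgeR adjusted p = 0.063 and 0.079). It was also lost in a separate fit of only the 6 libraries compared (edgeR adjusted p = 0.059). In limma on log2(FPKM + 1) and log2(FPKM + 0.1) the call was lost as well (adjusted p = 0.096 and 0.080). Without PCDH replicate 3, or in a fit of the 6 libraries alone, the difference of C269S cells from IDH1mt cells passed the test (edgeR adjusted p = 0.036 and 0.027). On log2(FPKM + 1), a scale that understates changes of low genes, the ACKR3 differences were 1.01 in IDH1mt cells and 0.56 in C269S cells, both against PCDH cells.

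Receptors for the 7 ligands were scarcely detected. Of 22 other chemokine receptors only 7 had enough counts to test, and CXCR1, CXCR3, CCR6 and CCR8 were at 0 in all 9 libraries. CXCR2, the receptor of the neutrophil attractants, had 2 counts and CCR2, the receptor of CCL2, had 14 counts over the 9 libraries together. CCR1, a receptor of CCL5 and related ligands, was the single receptor called in the 3 comparisons, with a log2 fold change of 0.57 in IDH1mt cells against PCDH cells (edgeR adjusted p = 0.0068, and 0.067 without PCDH replicate 1).

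Among 37 other chemokine ligands, 9 could be tested, 13 were at 0 in every library and the remaining 15 had at most 11 counts in a library. In IDH1mt cells against PCDH cells 3 were called, all higher. These were PPBP, the platelet basic protein of the CXC cluster (log2 fold change 0.73), CXCL14, an attractant of monocytes and dendritic cells (0.67), and CCL5, an attractant of T cells (1.10). In C269S cells against PCDH cells PPBP alone was called, at 0.60, and that call was lost without PCDH replicate 1 or 2 or C269S replicate 2 (edgeR adjusted p = 0.054 to 0.15). CCL7, a monocyte attractant encoded beside CCL2, had 2.27 ± 0.0395 CPM in C269S cells and 0.968 ± 0.237 CPM in IDH1mt cells (SD, n = 3 each). Its log2 fold change of 1.21 passed the test (edgeR adjusted p = 0.046) but not when any of the 6 libraries was left out (0.094 to 0.20). CXCL12 and CXCL11, the chemokine ligands of ACKR3, were near the limit of detection, with CXCL12 at 0.630, 0.363 and 0.531 CPM in C269S, IDH1mt and PCDH cells and CXCL11 at 6 counts in all.

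Of 11 other ligands and signalling partners of ACKR3, 9 were tested. ADM, the peptide adrenomedullin that ACKR3 also takes up, stood at 74.9 ± 3.15 CPM in C269S cells, 121 ± 4.14 CPM in IDH1mt cells and 79.3 ± 6.66 CPM in PCDH cells (SD, n = 3 each). It was higher in IDH1mt cells than in PCDH cells by 0.61 on the log2 scale (adjusted p = 6.4e-08) and lower in C269S cells than in IDH1mt cells, at -0.70 (adjusted p = 1.4e-08, edgeR). In C269S cells the ADM difference from PCDH cells was -0.08 (adjusted p = 0.69, edgeR). Of the arrestins, ARRB2 fell by 0.40 on the log2 scale in IDH1mt cells against PCDH cells (edgeR adjusted p = 0.00063), and ARRB1 rose by 0.49 (0.045), a call lost without any 1 of the 6 libraries (0.060 to 0.18). MIF, which shares its locus with MIF-AS1 and AP000350.4 and whose reads may be split with them, and the kinases GRK2, GRK3, GRK5 and GRK6 were not called in any comparison.

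All 18 genes listed as inducers of chemokine transcription were tested. In IDH1mt cells against PCDH cells 3 rose and 2 fell, with a median log2 fold change of 0.05 over the list against -0.01 over all genes. IL1A, the cytokine interleukin 1 alpha, rose by 0.65 (adjusted p = 1.1e-07, edgeR), and TNFRSF1B, a TNF receptor, by 0.34 (adjusted p = 6.7e-05, edgeR). IL1B, the related cytokine, rose by 0.19 (edgeR adjusted p = 0.007, and 0.066 without IDH1mt replicate 3). CEBPD, a transcription factor of acute inflammation, fell by 0.38 (edgeR adjusted p = 0.0065, and 0.059 without IDH1mt replicate 2). NFKB1, the p50 subunit of NF-kB, fell by 0.23, a call lost without PCDH replicate 1 or 2 or IDH1mt replicate 1 or 2 (edgeR adjusted p = 0.023, and 0.085 to 0.10 without them). In C269S cells CEBPD alone was called against PCDH cells, at -0.51 (edgeR adjusted p = 0.0026, and 0.059 without C269S replicate 1), and IL1A alone was called against IDH1mt cells, at -0.42 (edgeR adjusted p = 0.0003). RELA, RELB, REL, NFKB2 and the NF-kB target NFKBIA were not called in any comparison.

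Chemokine messages are short-lived, and 7 factors known to control the decay of such messages were examined. Of these, ZFP36L2 alone was called. It fell by 0.44 on the log2 scale in IDH1mt cells against PCDH cells (edgeR adjusted p = 0.00025). In C269S cells it was higher than in IDH1mt cells by 0.29 (edgeR adjusted p = 0.031), a call lost without any of C269S replicates 1 and 3 and IDH1mt replicates 1, 2 and 3 (0.055 to 0.21). ZFP36, ELAVL1, KHSRP and ZC3H12A were not called in any comparison.

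**Figure D4:**
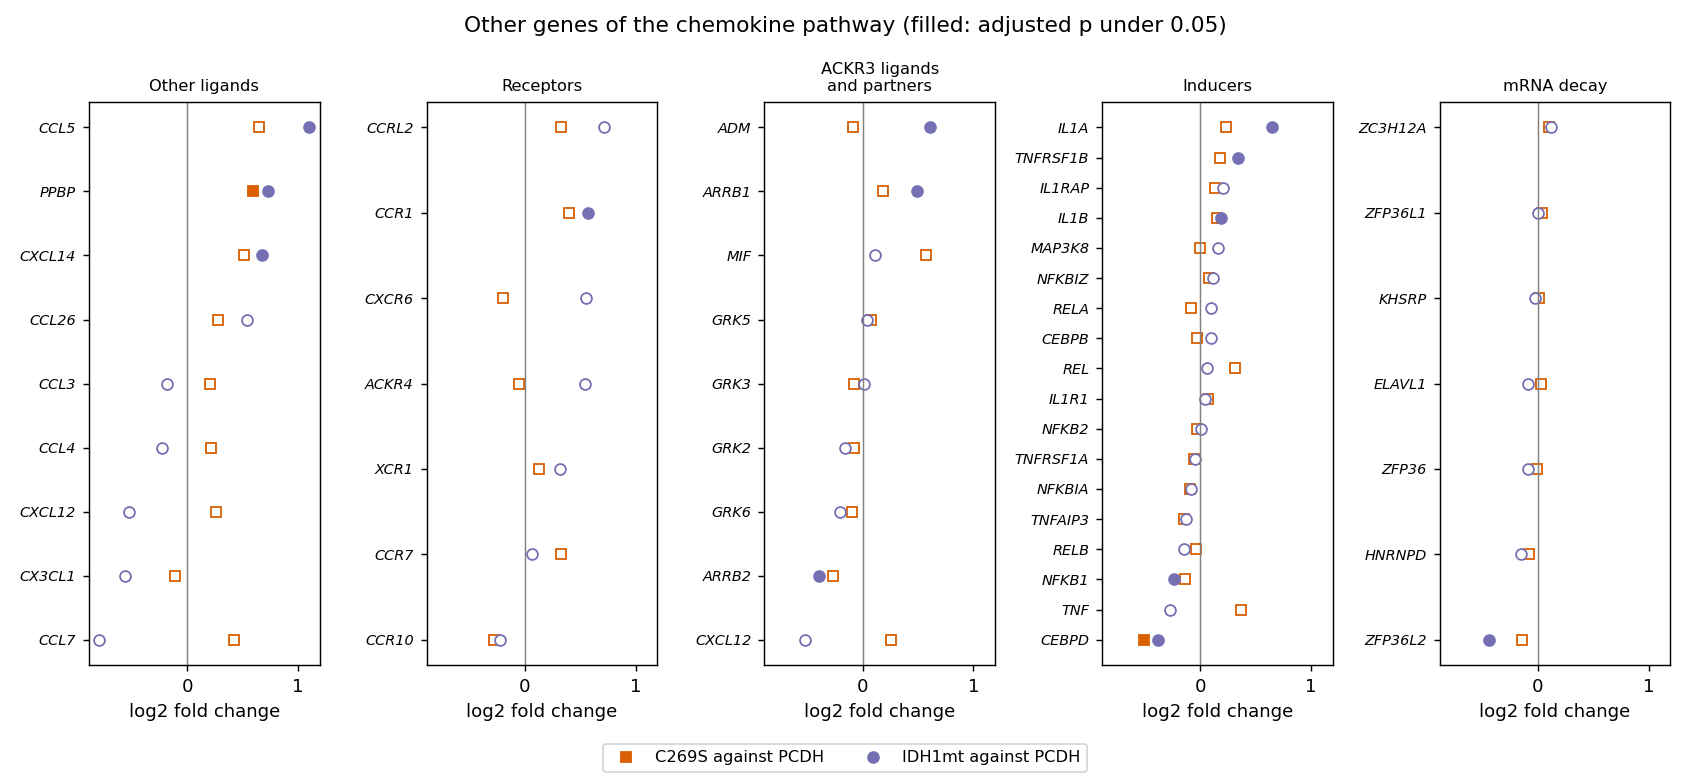
The plot gives log2 fold changes (horizontal axes) of the tested genes of 5 lists for C269S against PCDH (squares) and IDH1mt against PCDH (circles), filled where the edgeR adjusted p was under 0.05. CCL5 (1.10), PPBP (0.73), IL1A (0.65) and ADM (0.61) are among the filled circles, and PPBP (0.60) and CEBPD (-0.51) are the filled squares.

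By position, 27 protein-coding genes other than the members lay within 250000 bases of a member, and 7 of them could be tested. In IDH1mt cells against PCDH cells 5 of the 7 were called, all higher, where 7.18% of all genes tested were called higher, with a median log2 fold change of 0.51 against -0.01 over all genes. In the CXC cluster these were MTHFD2L, a mitochondrial folate enzyme next to CXCL2 (0.51), PPBP (0.73) and EPGN, the growth factor epigen (1.31, edgeR adjusted p = 0.011, and 0.071 without PCDH replicate 1). Near CCL20 they were AGFG1 (0.31) and DAW1 (0.61). In C269S cells against PCDH cells 3 were higher, namely MTHFD2L (0.38), PPBP (0.60) and DAW1 (0.58). The MTHFD2L call was lost without C269S replicate 1 (edgeR adjusted p = 0.058), and the DAW1 call without C269S replicate 1 or 2 (0.11 and 0.051). Within the cluster, CXCL1 and CXCL2 therefore fell in IDH1mt cells while their neighbours PPBP, CXCL3 and MTHFD2L rose. CXCL6 and PF4V1, which lie between CXCL8 and CXCL1, had 0 counts in every library.

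**Figure D5:**
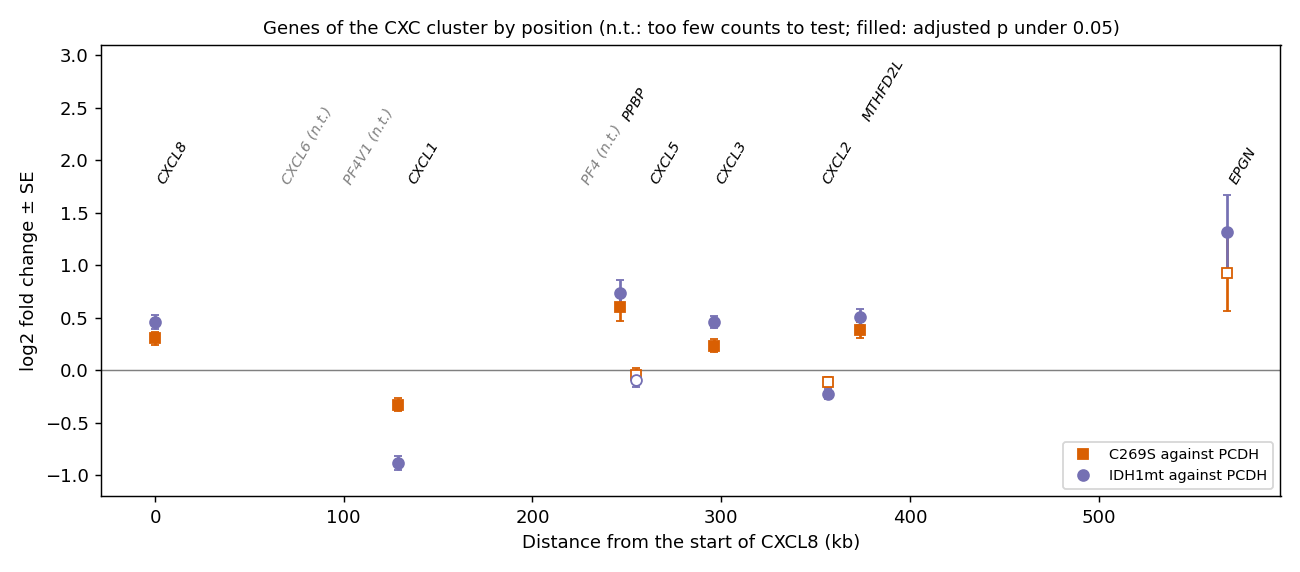
The plot places the tested genes of the CXC cluster by distance from the start of CXCL8 (horizontal axis, kb) against the log2 fold change ± SE (vertical axis) for C269S against PCDH (squares) and IDH1mt against PCDH (circles), filled where the edgeR adjusted p was under 0.05. CXCL1, at 128.9 kb, is the lowest point for IDH1mt cells (-0.89), while CXCL8, PPBP, CXCL3, MTHFD2L and EPGN lie above 0.

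The genes whose log2 CPM followed each member most closely over the 9 libraries were sought among 12282 tested protein-coding genes, by Pearson r, as a description of libraries that fall into 3 groups. For CXCL1 these were KDR (0.99), PLAU (0.99) and BHLHE41 (0.99), and for CXCL2 they were FKBP4 (0.97), SFRP2 (0.97) and ZNF287 (0.96). For CXCL3 they were SPOCK1 (0.99), ISLR2 (0.99) and HS3ST3B1 (0.98), and for CXCL8 they were CD47, NUMB and KDM5B (0.98 each). For CCL20 they were SOD3 (0.99), UAP1 (0.98) and CD24 (0.98), and for ACKR3 they were SLC22A23, NBL1 and TLDC1 (0.99 each). The closest genes to CXCL5 were GNAI1 (0.97), KIAA0586 (0.96) and MAP9 (0.95), and CCL2 had the loosest matches, PI4K2A (0.95), RAD54L2 (0.94) and INTS12 (0.94).

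Markers of other cell types were followed beside these genes. The summed level of the 8 myeloid and lymphoid markers was 10.5 to 14.01 CPM in C269S libraries, 15.5 to 18.2 CPM in IDH1mt libraries and 7.98 to 10.8 CPM in PCDH libraries, highest in IDH1mt cells as ACKR3 and CCL20 were, with C269S and PCDH libraries overlapping. CSF1R, a macrophage growth factor receptor, made up most of this sum and was higher in IDH1mt cells than in PCDH cells (log2 fold change 0.88, edgeR adjusted p = 1.1e-05), while TYROBP and CD3E were at 0. Of 5 endothelial markers 3 were tested, and KDR, a receptor of vascular endothelial growth factor, was called, at -0.79 in IDH1mt cells against PCDH cells (edgeR adjusted p = 6.9e-06) and 0.52 in C269S cells against IDH1mt cells (edgeR adjusted p = 0.0051). The summed endothelial markers ran from 20.3 to 21.9 CPM in C269S libraries, 17.4 to 19.1 CPM in IDH1mt libraries and 22.4 to 23.9 CPM in PCDH libraries, the same order as CXCL1. KDR made up most of this sum, at 13.7, 9.58 and 16.6 CPM in C269S, IDH1mt and PCDH cells. The other tested markers, PECAM1 and VWF, were not called in any comparison. Their log2 fold changes in IDH1mt cells against PCDH cells were 0.25 and 0.63, opposite in direction to KDR. The part of these markers in the member results was not tested.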

How the data were processed

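Bulk RNA libraries of U87 cells, 3 each of C269S, IDH1mt and PCDH, were analysed from the table of whole-number counts per gene that the authors deposited. The submitters' processing notes name HISAT2 2.0.5, featureCounts 1.5.0-p3 and the builds GRCh38 and hg38. The sources used here do not give the strand setting. The authors also deposited FPKM values, which equal count over length and library total times a factor of 0.969 to 1.018 per library. Group columns were identified by name, CS as C269S, mt as IDH1mt and Control as PCDH.

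Counts were scaled by TMM and filtered with filterByExpr, and all 9 libraries were fitted with a mean per group by edgeR 4.0.16 (R 4.3.3) with its robust quasi-likelihood F test. P-values were adjusted by Benjamini-Hochberg over 16874 genes and called under 0.05. The SE is the log2 fold change over the root of F. On simulated counts for IDH1mt against PCDH (16874 genes, 4 simulated sets), 91.0% of genes changed 4-fold and 31.5% of those changed 1.25-fold were recovered. Of all calls made in the simulated sets, 6.07% were false. Each set changed far fewer genes than the 2375 called in the data for this comparison, so these shares need not hold there. Alternatives were DESeq2 1.42.0, limma 3.58.1 on log2(FPKM + 1) and log2(FPKM + 0.1), other scalings and filters, a replicate block, the libraries of a comparison alone, each library left out, and the counts of CXCL1, CXCL2 and CXCL3 summed. Sequences were aligned with Biopython 1.88.

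The members and the gene lists were chosen with earlier results of these data known. Of each list, up to 4 genes per comparison with the lowest adjusted p among those called were named, and so were untested or uncalled genes of known role. NFKB1 was named after its values were seen. Some genes of the marker lists are not reported here by name. Replicate libraries differed by more than sampling noise, with a chi-square per degree of freedom of 3.69 to 10.9, so none was counted as a duplicate.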

Additional observations from a re-analysis of the deposited data

How the results depend on the processing

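Of 447 values of single members under alternative settings, 404 kept their direction and side of the threshold, 36 lost a call, 4 gained one and 3 changed sign. The calls of CXCL1, CXCL2, CXCL3, CXCL8, CCL20 and ACKR3 in IDH1mt against PCDH, of CCL20 in C269S against PCDH, and of CXCL1 and CCL2 in C269S against IDH1mt held under every alternative run. The changes of sign were of CXCL5, uncalled throughout. With a library left out it ran from -0.019 (without C269S replicate 2) to 0.10 in C269S against IDH1mt, and from -0.11 to 0.027 (without PCDH replicate 3) in C269S against PCDH, where it was also positive without C269S replicate 3 (0.017). Among other genes, uncalled values of C269S against IDH1mt changed sign for AGFG1 (-0.081 to 0.0068 with a library left out, the highest without C269S replicate 3), DAW1 (0.00027 with library size alone) and VIM (0.026 with library size alone, 0.0083 with no filter, -0.012 to 0.0070 with a library left out, positive without IDH1mt replicate 3 or C269S replicate 3). Numbers of members called in C269S against PCDH were 2 higher in the fit of 6 libraries, 1 higher in both limma fits and 0 lower with the paralogs summed, and 1 to 4 higher and 0 to 1 lower when a library was left out. In C269S against IDH1mt they were 4 lower in the fit of 6 libraries, 1 higher and 1 lower with the paralogs summed, and 2 higher and 0 to 4 lower with a library left out. Over the lists, C269S against PCDH gave 8 higher with no filter, 9 higher and 2 lower in DESeq2, 2 lower with library size alone, 2 higher and 0 lower in both limma fits, and 2 to 11 higher and 0 to 3 lower with a library left out. C269S against IDH1mt gave 2 higher and 3 lower in both limma fits, and 2 to 5 higher and 3 to 6 lower with a library left out, and IDH1mt against PCDH gave 4 to 10 lower. Over all genes, calls in C269S against PCDH numbered 239, against 903 without PCDH replicate 3, 103 without C269S replicate 1, 145 in the fit of 6 libraries and 85 and 87 in limma, and in C269S against IDH1mt 827, against 1244 without PCDH replicate 3 and 443 and 445 in limma. The share of calls that were higher was 51.0% in IDH1mt against PCDH and 46.8% in C269S against IDH1mt, against 35.2% and 60.1% with library size alone. Same-numbered libraries of different groups did not deviate together over all genes tested (r -0.087 to 0.056 in 9 pairs), so the numbers were not taken to pair them. A correlation over all genes cannot exclude a pairing that touches only some of them. With a replicate block the calls numbered 1987 in IDH1mt against PCDH, 172 in C269S against PCDH and 605 in C269S against IDH1mt, where 1 member was lower. Under the block CCL2 in IDH1mt against PCDH (adjusted p = 0.057) and CXCL3 in C269S against PCDH (0.088) and against IDH1mt (0.051) were not called by edgeR. Low counts limit ACKR3 most, with 20 to 126 counts in a library.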

Other observations

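The mesenchymal glioma markers, which are no chemokine genes, also differed between groups. In IDH1mt cells against PCDH cells 4 of 7 rose and 2 fell, where 7.18% of all genes tested were called higher and 6.9% lower, and the median log2 fold change was 0.22, against -0.01 over all genes. The 2 that fell were TNC and VIM. VIM, vimentin, was named after its values were seen, and its fall of 0.16 (edgeR adjusted p = 0.019) was not called without PCDH replicate 1 or any of IDH1mt replicates 1, 2 and 3 (adjusted p = 0.057 to 0.12). TNC, a matrix glycoprotein, had the larger fall (4459 ± 173 CPM in C269S cells, 3422 ± 152 CPM in IDH1mt cells and 4717 ± 78.9 CPM in PCDH cells, SD, n = 3 each). Its log2 fold change was -0.46 in IDH1mt against PCDH cells (adjusted p = 1.3e-08) and 0.38 in C269S against IDH1mt cells (adjusted p = 1.2e-06, edgeR). FN1, fibronectin, rose by 0.45 on the log2 scale in C269S cells against PCDH cells (edgeR adjusted p = 5.5e-07).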
